A study of Rattus norvegicus with 6 samples.

Results

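The core loop of the circadian clock was examined in rat neuroretina through 9 genes, taken by name from the deposited gene tables: Arntl, Clock, Npas2, Per1, Per2, Per3, Cry1, Cry2 and Ciart. All 9 were among the 28358 genes of the tables, and all 9 were among the 13242 genes with enough counts to be tested. RNA had been sequenced from 6 samples of male GK (Goto-Kakizaki) rats aged 14 months, a strain with spontaneous type 2 diabetes but no obesity. Every eye had received 1 injection of 5 µL of PLGA microspheres, a degradable polymer, into the vitreous. In the 3 control libraries, numbered 1 to 3 in accession order, the microspheres were non-loaded. In the 3 treated libraries, likewise numbered, they carried 6.2 µg of spironolactone, which blocks the mineralocorticoid receptor. Retinas were taken after 2 months. There was no group without microspheres and no non-diabetic strain. The labels give neither the hour of sampling nor the light cycle, which matters for genes whose RNA oscillates over the day, and they do not say whether each sample was a separate animal, so the p-values rest on a spread between samples that may in part be technical.

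The clock is a feedback loop of transcription. The proteins of Arntl (also named Bmal1) and of Clock or its relative Npas2 form a dimer that binds E-boxes in DNA and switches on the Per and Cry genes, whose proteins then return to the nucleus and block the dimer. Ciart, also called Chrono, encodes a further repressor of the same dimer. In a second loop, the nuclear receptors Nr1d1 and Nr1d2 repress Arntl and the Ror receptors activate it. The mammalian retina holds a clock of its own, which sets daily rhythms of photoreceptor and inner retinal function.

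The upstream sequence is shown for the 3 genes whose values separated the groups most clearly: Ciart, Arntl and Per2. RefSeq promoter windows of the GRCr8 assembly (300 bases, 250 before the start site and 50 after) were matched for 8 of the 9 genes, Cry1 being the exception. The 250 bases before the start site are given 5′ to 3′ on the gene's strand, for Ciart at chr2:186112247-186112496 (minus strand), for Arntl at chr1:176766078-176766327 (plus strand) and for Per2 at chr9:99496994-99497243 (minus strand). This is the reference strain's sequence, not that of the GK rats, and another build than the one the submitters used. Capitals mark matches to clock-related motifs.
Ciart: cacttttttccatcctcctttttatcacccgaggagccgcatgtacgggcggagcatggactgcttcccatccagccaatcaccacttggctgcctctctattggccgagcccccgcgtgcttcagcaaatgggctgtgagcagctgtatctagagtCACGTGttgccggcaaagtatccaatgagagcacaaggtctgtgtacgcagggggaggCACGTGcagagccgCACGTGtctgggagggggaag
Arntl: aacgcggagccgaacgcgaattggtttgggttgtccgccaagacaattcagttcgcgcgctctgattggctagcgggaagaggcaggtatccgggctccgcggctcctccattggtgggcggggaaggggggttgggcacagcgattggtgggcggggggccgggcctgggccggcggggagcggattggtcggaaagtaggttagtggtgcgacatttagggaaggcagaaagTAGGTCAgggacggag
Per2: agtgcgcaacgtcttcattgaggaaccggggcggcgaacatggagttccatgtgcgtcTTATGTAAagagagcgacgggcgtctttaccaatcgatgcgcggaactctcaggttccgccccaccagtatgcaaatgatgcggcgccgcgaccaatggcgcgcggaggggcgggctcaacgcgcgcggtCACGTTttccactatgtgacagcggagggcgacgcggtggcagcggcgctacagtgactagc

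The Ciart window held 3 copies of the E-box CACGTG, at −93, −35 and −21 from the start site. An E-box occurred in 6.43% of the 33365 different promoter windows of the table, and 3 or more copies in 0.0569% (19 windows). The Arntl window held 1 match to the ROR element, TAGGTCA at −16, where only TAGGTCA and TGGGTCA were searched. Either spelling occurred in 6.61% of windows. Other spellings were not searched, among them taggtta, which the Arntl sequence above also holds. The Per2 window held the E-box variant CACGTT at −62 (4.84% of windows) and the D-box TTATGTAA at −192 (1.01%, with TTACGTAA also searched). Cry2 had 1 match, CACGTT on the opposite strand at −212. The windows of Per1, Per3, Npas2 and both start sites of Clock held none of the searched motifs. No window of the 8 genes held the cyclic AMP element TGACGTCA (1.83% of windows). Sequence outside these windows of 300 bases was not searched, so an absence says nothing about elements farther away. Both strands were searched and no matches overlapped. A match is a run of letters, not shown to be bound in these retinas.

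In the comparison of spironolactone-loaded with non-loaded microspheres, 2 of the 9 genes rose and 0 fell. Ciart rose 1.88-fold and Arntl 1.198-fold. Per2 was lower, at 0.797 of its control level, by a difference that narrowly missed the threshold, and the other 6 showed small differences that did not pass. DESeq2 and limma-voom gave the same 2 calls and 0 lower. In edgeR 4 of the 9 had an unadjusted p below 0.05, 1 of them (Per2) lower, against 15.8% of all tested genes in either direction. The 9 were chosen with earlier results of these data known. Over all tested genes 2.63% passed an adjusted p of 0.05 (348 genes), 1.87% higher and 0.763% lower. The median log2 fold change of the 9 was 0.05, against 0.00 over all tested genes. Values below are CPM (edgeR's depth-scaled counts, with TMM factors), for comparing a gene between libraries, and TPM, which corrects for gene length, for comparing genes with each other.

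**Figure D1:**
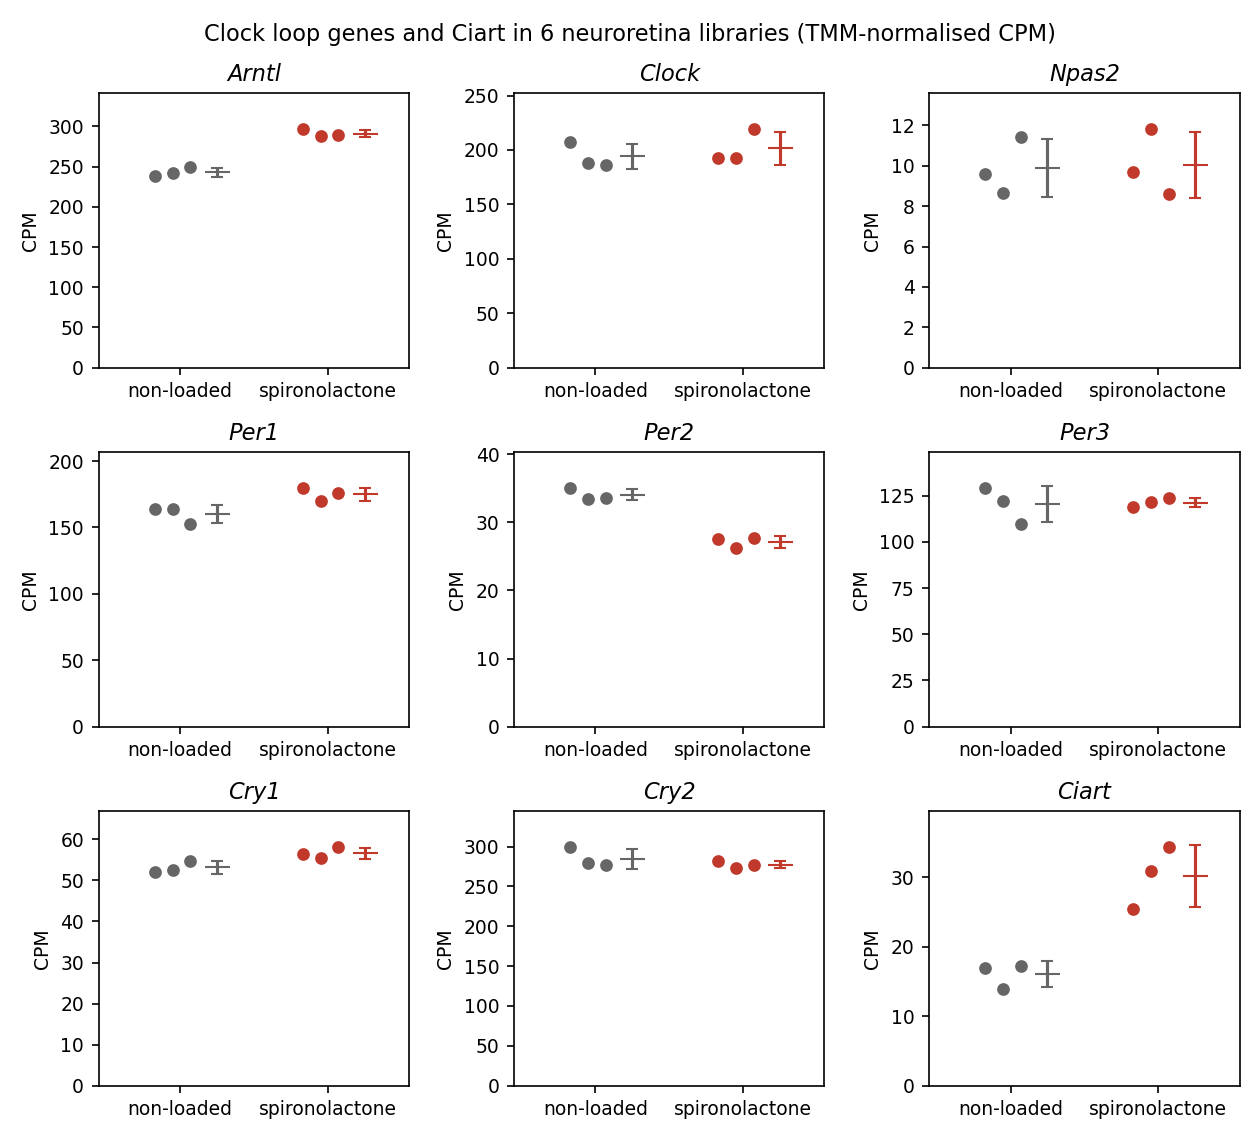
CPM of the 9 genes, 1 panel a gene with its own linear axis from 0; points are the 3 libraries of each group (1 to 3 from left to right) and the bar beside them is the mean ± SD. Ciart (at most 17.3 against at least 25.4 CPM), Arntl (at most 249.4 against at least 287.9), Per1 and Cry1 are higher in every spironolactone library, Per2 is lower in every one, and the groups overlap for the other 4.

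Arntl encodes the partner that the activating dimer cannot do without. It measured 237.8, 241.6 and 249.4 CPM in control libraries 1 to 3 and 296.5, 287.9 and 289.1 CPM in treated libraries 1 to 3. Every treated library lay above every control library, and both groups were tight, with means of 242.9 ± 5.94 and 291.2 ± 4.64 CPM (SD, n = 3 each). Arntl rose by a log2 fold change of 0.26 ± 0.05 (SE; 95% interval 0.15 to 0.38; edgeR quasi-likelihood test, adjusted p = 0.0152). The size stayed between 0.25 and 0.28 with any 1 library left out, but the call was lost without control library 1 (adjusted p = 0.0877), control library 2 (0.0803) or treated library 2 (0.0856), and on log2(TPM + 1) with limma (0.0714).

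Clock, the usual partner of Arntl, measured 207.5, 188.4 and 186.3 CPM in the control libraries and 192.6, 192.6 and 219.0 CPM in the treated ones. The groups overlapped, with the highest value in treated library 3 and the next in control library 1 (log2 fold change 0.05 ± 0.07, 95% interval −0.09 to 0.19, adjusted p = 0.754 in edgeR's test). Npas2, which can replace Clock, measured 9.61, 8.64 and 11.4 CPM and 9.70, 11.8 and 8.58 CPM. With only 95 to 148 counts a library its interval was wide (0.02 ± 0.17, 95% interval −0.33 to 0.37, adjusted p = 0.97), so smaller changes of Npas2 were not detectable at this depth. Of the 3 genes of the activating dimer only Arntl passed; whether its difference was larger than that of Clock was not tested.

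Among the Per genes, whose proteins carry the repression back to the nucleus, the values went in different directions. Per1, which light and glucocorticoids are known to induce, measured 164.2, 163.7 and 152.3 CPM without drug and 179.5, 170.0 and 175.8 CPM with it. All treated libraries lay above all controls, by a narrow margin (0.13 ± 0.06, 95% interval 0.01 to 0.25, unadjusted p = 0.0387, adjusted p = 0.283; edgeR). Per2 measured 35.0, 33.5 and 33.6 CPM in the controls and 27.5, 26.2 and 27.7 CPM in the treated libraries. Again the groups did not overlap, now with the treated libraries lower, at 34.0 ± 0.84 against 27.1 ± 0.85 CPM (SD, n = 3 each). The log2 fold change of Per2 was −0.33 ± 0.09 (SE; 95% interval −0.51 to −0.15; unadjusted p = 0.00142, edgeR adjusted p = 0.0525). It passed with upper quartile scaling (adjusted p = 0.0499), robust shrinkage (0.0468) or no filter on low counts (0.0461), and with 1 library left out its adjusted p lay between 0.0579 and 0.232.

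Per3 measured 129.1, 122.2 and 109.9 CPM and 118.7, 121.6 and 123.7 CPM. The treated libraries fell inside the range of the controls (0.01 ± 0.06, 95% interval −0.12 to 0.15, adjusted p = 0.956). Its TPM gave another picture within the groups: 77.0 in control library 1 and 77.9 in treated library 3, against 61.7 to 62.5 in the other 4 libraries. The authors' table lists 8 transcripts for Per3, and those 2 libraries had the shortest mean transcript length (3195.86 and 3047.24 bases, against 3415.6 to 3756.74). Their CPM were also the highest of the 6, by a smaller margin (129.1 and 123.7, against 109.9 to 122.2), in 1 library of each group.

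The within-library proportion of the Per genes shows the opposed values of Per1 and Per2 directly. The TPM of Per1 was 6.79, 7.07 and 6.55 times that of Per2 in the control libraries and 9.43, 9.38 and 9.17 times in the treated libraries. The groups did not overlap; this ratio was chosen after the values were seen and is a description.

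The Cry genes encode the strongest repressors of the dimer. Cry1 measured 52.0, 52.6 and 54.8 CPM without drug and 56.4, 55.4 and 58.1 CPM with it, so that the lowest treated library lay just above the highest control (0.09 ± 0.07, 95% interval −0.06 to 0.24, adjusted p = 0.592). Cry2 measured 299.2, 279.2 and 276.4 CPM and 282.2, 273.0 and 276.3 CPM, with overlapping groups (−0.04 ± 0.06, 95% interval −0.16 to 0.08, adjusted p = 0.795). For Cry2, at 2957 to 3422 counts a library, the interval was narrow.

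Ciart had by far the widest spread of the 9 across libraries. Its expected counts were 168, 160 and 210 in control libraries 1 to 3 and 272, 387 and 380 in treated libraries 1 to 3. In CPM these were 17.0, 14.0 and 17.3 without drug and 25.4, 30.9 and 34.3 with it. The lowest treated library exceeded the highest control by a wide gap, with group means of 16.1 ± 1.84 and 30.2 ± 4.51 CPM (SD, n = 3 each). Ciart rose by a log2 fold change of 0.91 ± 0.12 (SE; 95% interval 0.65 to 1.17; edgeR adjusted p = 0.000407), which placed it 39th by p among all tested genes and 25th by fold among the 247 that rose. With each library left out in turn the log2 fold change lay between 0.81 and 1.02 and the adjusted p between 5.65e-05 and 0.00904. DESeq2 (adjusted p = 6.21e-08), limma-voom (0.00069) and log2(TPM + 1) (0.0137) also called it. Within each library Ciart's TPM was 0.159, 0.129 and 0.155 of Arntl's in the controls and 0.192, 0.239 and 0.266 of it in the treated libraries, higher in each of the latter; this ratio too was picked after the values were seen.

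All 9 genes had whole expected counts in all 6 libraries (within 0.005), so no fraction of a read was assigned to them. Whole counts of a gene do not show how its reads were shared among its transcripts. In the RefSeq gene order of GRCr8, no annotated gene overlapped Ciart. The nearest tested genes beside it were Mrps21 (log2 fold change 0.18 ± 0.13, adjusted p = 0.561) and Prpf3 (0.23 ± 0.07, adjusted p = 0.117) on one side and Aph1a (−0.21 ± 0.08, adjusted p = 0.213) and Car14 (0.00 ± 0.06, adjusted p = 0.998) on the other. None of these 4 neighbours passed edgeR's test. Transcripts without a symbol of a tested gene overlapped Clock, Npas2, Per2, Cry1 and Cry2 in that annotation; whether the authors' counting used strand is not given in the sources used here.

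**Figure D2:**
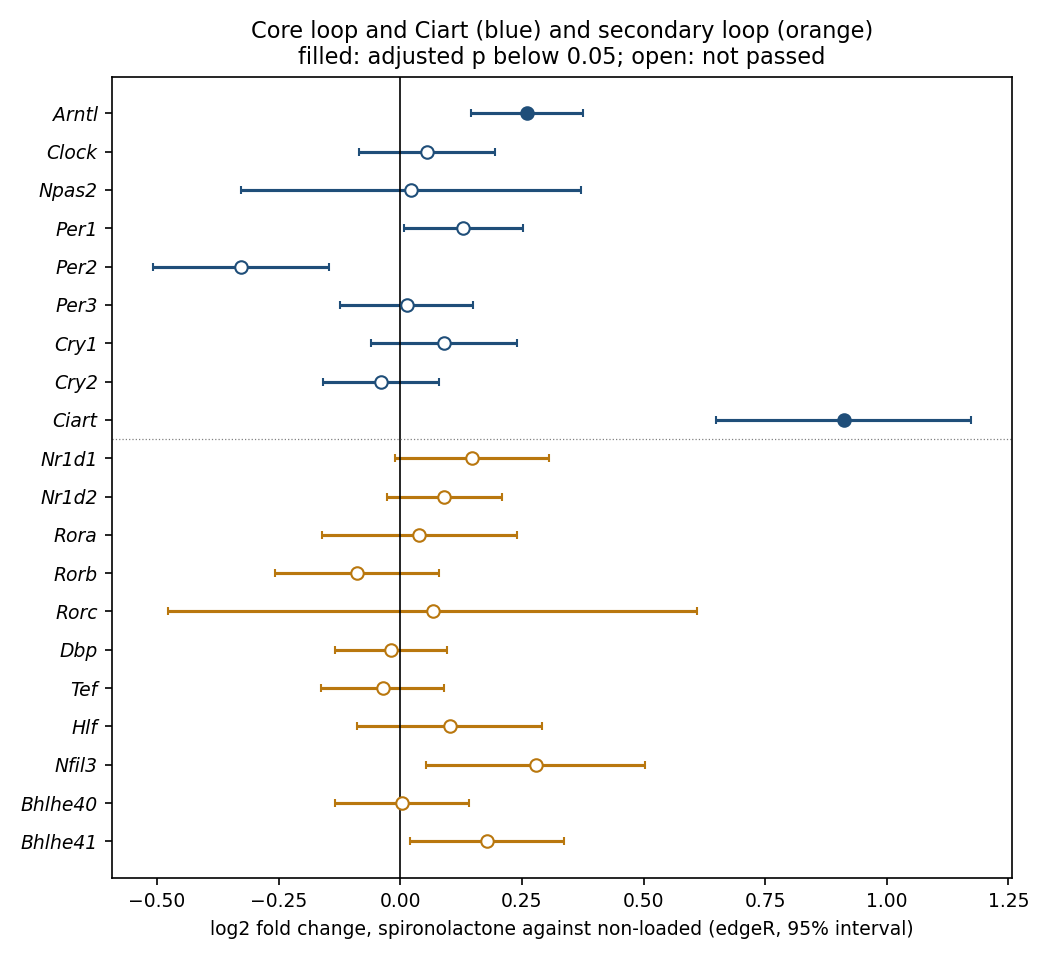
Log2 fold change (edgeR, spironolactone against non-loaded) with its 95% interval for the 9 genes (blue) and for the 11 genes of the secondary loop (orange); filled points passed an adjusted p of 0.05. Ciart (0.91) and Arntl (0.26) are filled, Per2 (−0.33) is open with an interval below 0, and no orange point is filled.

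Groups that do not overlap were common in these data: 20.9% of tested genes had every treated library above or below every control. Among the 9 clock genes 5 did (Arntl, Per1, Cry1 and Ciart higher, Per2 lower). The members and their related genes were chosen with earlier results of these data known, so such counts describe the genes and support nothing further.

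By length-corrected level, the 9 genes spanned a wide range. Arntl was highest in every library, with 150.8 to 197.5 TPM, followed by Cry2 with 128.7 to 142.1 TPM. Per1 (72.5 to 86.5 TPM) and Per3 (61.7 to 77.9 TPM) overlapped in range, Per1 being higher in 5 of 6 libraries. Clock followed with 45.5 to 56.7 TPM. Cry1 (33.4 to 38.2 TPM) and Ciart (19.5 to 49.6 TPM) overlapped as well: Cry1 was above Ciart in 4 of 6 libraries. Per2, with 8.37 to 11.3 TPM, and Npas2, with 3.69 to 5.16 TPM, were lowest. Of the neighbours in this order, only the pairs Per1 and Per3 and Cry1 and Ciart had ranges that overlapped.

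Paralogues differed strongly in level: Clock exceeded Npas2 by 9.25 to 14.9 times in TPM, and Cry2 exceeded Cry1 by 3.45 to 4.17 times. Between the partners of the dimer, Arntl exceeded Clock by 3.0004 to 3.93 times. Arntl2, the paralogue of Arntl, was below the filter on low counts.

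**Figure D3:**
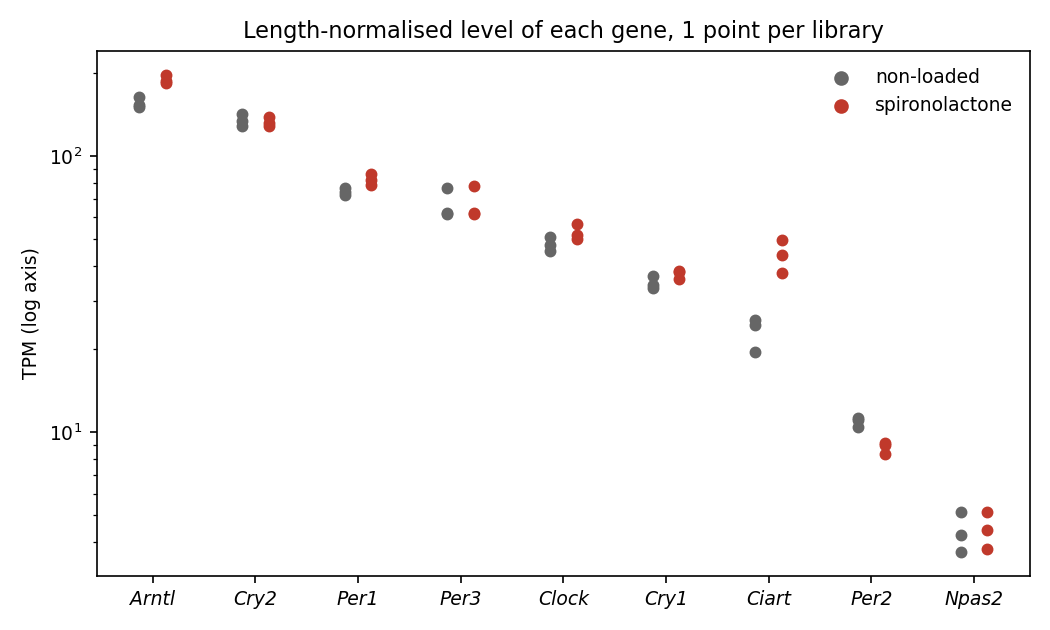
TPM on a log axis for the 9 genes in order of their mean over 6 libraries, 1 point per library, non-loaded grey and spironolactone red. Arntl is highest and Npas2 lowest in every library, and Ciart is the gene whose 2 groups lie farthest apart.

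Genes around the core loop were then read from 4 lists. The secondary loop that links to Arntl had 0 of 11 genes called, against 2.63% of all tested genes (median log2 fold change 0.07). Groups did not overlap for 3 of the 11, all higher, against 20.9% of all tested genes in either direction. An unadjusted edgeR p below 0.05 was found for 2 of the 11, Nfil3 and Bhlhe41, a share near that of all tested genes (15.8%). DESeq2 and limma-voom also called 0 of these 11. Dbp, a transcription factor gene whose RNA is a classical readout of the dimer at E-boxes, measured 240.1, 236.7 and 240.9 CPM without drug and 242.1, 230.2 and 236.5 CPM with it. The 6 libraries were almost level, and the groups overlapped (−0.02 ± 0.05, 95% interval −0.13 to 0.10, adjusted p = 0.922). Nr1d1, a repressor of Arntl, measured 283.4, 302.8 and 294.2 CPM and 279.1, 347.2 and 349.0 CPM. Treated library 1 was the lowest of all 6 and the other 2 treated libraries the highest (0.15 ± 0.07, adjusted p = 0.356). Without treated library 1 Nr1d1 passed, at 0.25 (adjusted p = 0.0262). Nr1d2, its close relative, measured 231.1, 242.0 and 225.8 CPM and 254.0, 247.6 and 242.7 CPM, just separated (0.09 ± 0.06, adjusted p = 0.465). Nfil3, a repressor that competes with Dbp at D-boxes, had a log2 fold change of 0.28 ± 0.11 (adjusted p = 0.204) and Bhlhe41, which competes at E-boxes, of 0.18 ± 0.07 (adjusted p = 0.251).

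Among kinases, ubiquitin ligases and ubiquitin-removing enzymes (Usp2 and Usp7) that act on clock proteins, 6 of 20 had an unadjusted edgeR p below 0.05. Of these 6, 1 was lower, and the share over all tested genes was 15.8%. After adjustment 1 of the 20 rose and 0 fell (median 0.05), against 1.87% and 0.763% of all tested genes. The gene was Siah2, whose ubiquitin ligase targets several proteins, among them Nr1d1: it rose from 13.7 ± 2.38 to 24.2 ± 2.23 CPM (SD, n = 3 each; 0.81 ± 0.13, edgeR adjusted p = 0.00205). Btrc, a ligase subunit that marks Per proteins for breakdown, came next without passing (0.18 ± 0.05, adjusted p = 0.0953), followed by Usp7 (0.17 ± 0.06, adjusted p = 0.127). Casein kinase genes that phosphorylate Per proteins were not called, Csnk1d at −0.14 ± 0.06 (adjusted p = 0.284) and Csnk1e at 0.18 ± 0.07 (adjusted p = 0.183), both named after their values were seen.

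Among cofactors 6 of 20 had an unadjusted edgeR p below 0.05, 1 of them lower, against 15.8% of all tested genes. After adjustment 1 of the 20 rose and 0 fell (median 0.06), against 1.87% and 0.763% of all tested genes. Ncor1, the corepressor through which Nr1d1 acts, rose from 458.9 ± 8.42 to 580.1 ± 67.5 CPM (SD, n = 3 each; 0.34 ± 0.07, edgeR adjusted p = 0.0153), but it did not pass without control library 1 (0.0613), control library 2 (0.0658), treated library 2 (0.0694) or treated library 3 (0.0646). Pspc1 (0.25 ± 0.07, adjusted p = 0.0641) and Sfpq (0.19 ± 0.06, adjusted p = 0.1), related RNA-binding proteins found with Per complexes, did not pass. Sirt1 was not analysed here.

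Among genes that carry light or hormone signals to the clock, 6 of 19 had an unadjusted edgeR p below 0.05, 2 of them lower. Over all tested genes that share was 15.8%. After adjustment 3 of the 19 rose and 0 fell (median −0.01), against 1.87% and 0.763% of all tested genes. By sign alone 9 of the 19 were positive and 10 negative. Klf9, a hormone-induced transcription factor gene that is also rhythmic, measured 148.6, 149.7 and 140.5 CPM without drug and 194.6, 178.6 and 184.9 CPM with it (0.35 ± 0.06, edgeR adjusted p = 0.00315), and Fkbp5, a corticoid-induced co-chaperone gene, 57.4, 54.5 and 49.997 CPM and 72.7, 70.6 and 72.0 CPM (0.41 ± 0.07, adjusted p = 0.00362). In both genes the groups were well apart. Sgk1 (−0.02 ± 0.06, edgeR adjusted p = 0.933) and Tsc22d3 (−0.04 ± 0.08, adjusted p = 0.848), also on the hormone side of this list, were not called. Fos (−0.40 ± 0.19, edgeR adjusted p = 0.312) was lower in every treated library and Prkg2 (−0.55 ± 0.23, adjusted p = 0.244) lower with overlapping groups, neither called. Sgk1, Tsc22d3, Fos and Prkg2 were named after their values were seen. Adcyap1, which encodes the transmitter PACAP of light-sensing ganglion cells, rose from 7.37 ± 1.02 to 11.5 ± 1.04 CPM (SD, n = 3 each; 0.63 ± 0.16, adjusted p = 0.0452), a call kept only without control library 3 (0.044) when 1 library was left out (otherwise 0.0859, without treated library 1, 0.107, without treated library 2, 0.124, without treated library 3, 0.148, without control library 1, and 0.172, without control library 2). Together the 4 lists had 5 of 70 tested genes called, all higher, which is 7.14% against 2.63% of all tested genes. The lists were chosen with earlier results of these data known, so their shares describe the genes and support nothing further.

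**Figure D4:**
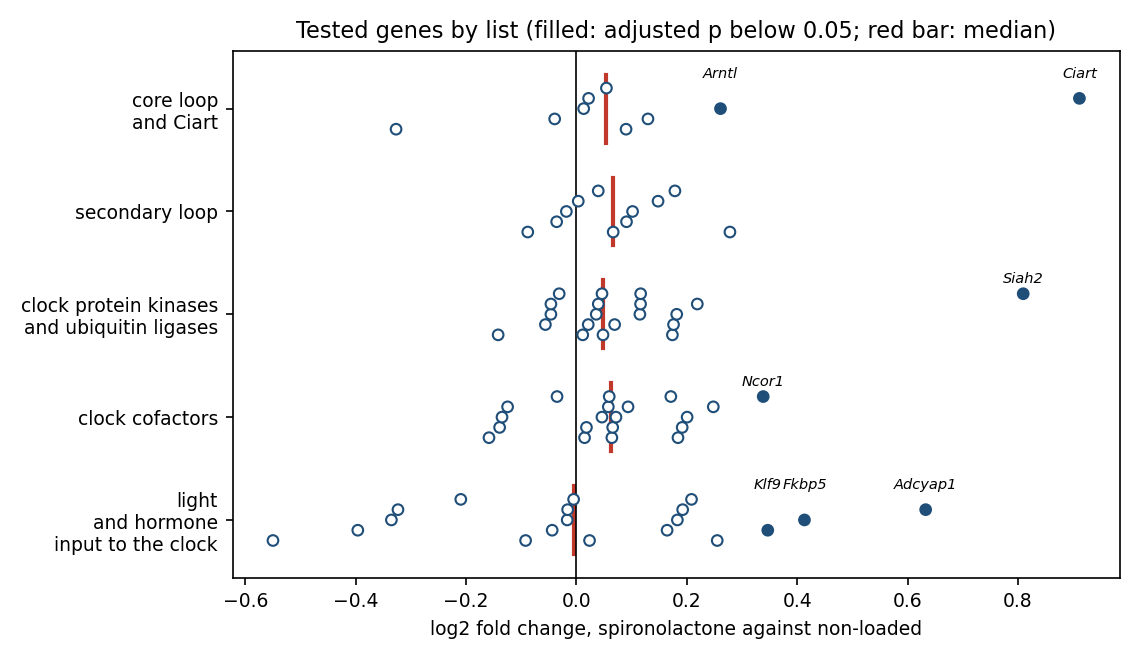
Log2 fold change (spironolactone against non-loaded) of every tested gene of the core loop and of 4 related lists, 1 point per gene spread vertically only for legibility; filled points passed an adjusted p of 0.05 and red bars are medians. Ciart and Siah2 lie farthest to the right, the medians stay between −0.01 and 0.07, and no gene on the left is filled.

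Across the 6 libraries, the genes most like Ciart were looked up by the root mean square difference of log2 CPM, each gene centred on its own mean, among 12463 other genes with a symbol and a mean log2 CPM of at least 0. They were Lars (0.083), Gars (0.115), Atf5 (0.119), Slc7a5 (0.123) and Dusp8 (0.137), where Ciart's own root mean square deviation was 0.470. Lars and Gars encode aminoacyl-tRNA synthetases, Atf5 a transcription factor, Slc7a5 an amino acid transporter and Dusp8 a phosphatase. All 5 rose, by log2 fold changes of 0.73 to 0.89. Nearest to Arntl were Coq2 (0.022), the photoreceptor transcription factor gene Crx (0.024), Pcyt1b (0.026), Orc3 (0.027) and Zfp444 (0.027), against Arntl's own deviation of 0.133. Of these Crx (0.25 ± 0.06, edgeR adjusted p = 0.0286) and Zfp444 (0.26 ± 0.06, adjusted p = 0.0195) were called, neither of them without control library 1, control library 2, treated library 2 or treated library 3 (adjusted p between 0.0505 and 0.158). With 6 libraries in 2 groups, genes that differ between the groups by a like amount score as alike.

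Totals per library lay between 9996198 and 12589467 rounded expected counts. Markers of retinal cells were present, rods foremost: 10 rod markers summed to 22005 to 26963 CPM in the control libraries and to 18864 to 20560 CPM in the treated ones, of which Gnat1 made up the largest part of the difference: the other 9 summed to 14343 to 15605 and to 13382 to 14259 CPM. Of the 10, 5 fell: Gnat1 (−0.78), Rom1 (−0.54), Pde6g (−0.40), Nr2e3 (−0.40) and Rcvrn (−0.34). Pde6a (−0.076), Pde6b (−0.096), Cnga1 (−0.097) and Nrl (−0.22) were not called, nor was Sag, which was higher in every treated library (0.081). Cell markers called were 0 of 9 for cones, 0 of 7 for bipolar cells (Otx2 was listed at 0), 0 of 10 for amacrine and horizontal cells, 0 of 7 for ganglion cells, 1 of 9 lower for Müller glia (Crym), 0 of 7 for microglia and 1 of 6 higher for endothelium (Vwf). The pigment epithelium and choroid, which can adhere to a dissected retina, had 0 of 8 called, with sums of 131.6 to 157.7 CPM in the controls and 143.8, 128.0 and 75.2 CPM in treated libraries 1 to 3. Treated library 3, the lowest in this sum, was the highest in Ciart, whose log2 fold change without it was 0.81 (edgeR adjusted p = 0.00279). Lens (at most 9.18 CPM in sum, Mip and Lim2 at 0) and erythrocyte markers (at most 53.4 CPM) had 0 of 1 tested gene called each. In the 8 marker lists without an edgeR call, 7 of 50 genes had an unadjusted p below 0.05, near the 15.8% of all tested genes, and DESeq2 called 2 and limma-voom 1. In bulk tissue, fewer cells of a type and less RNA per cell cannot be told apart. The part of the lower rod markers in the values of Arntl, Per2 and Ciart was not tested.

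The titles number the control libraries 2, 3 and 4 and the treated ones 8, 10 and 11, a number whose meaning the labels do not give. With that number as a covariate 0 of the 9 genes and 0 of all tested genes passed edgeR's test, with 562 genes at an unadjusted p below 0.05. In that fit Arntl kept its size (0.26) and Ciart measured 0.16. The number and the treatment cannot be told apart, since the groups do not overlap in it.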

How the data were processed

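RNA sequencing covered 6 neuroretina samples, grouped 3 and 3 by the labels' treatment field. Stranded mRNA libraries were made from DNase-treated total RNA, per the labels' protocols. FastQC, Trimmomatic, STAR 2.5.3a, RSEM 1.2.28 and rn6 appear in the submitters' processing notes. Annotation and strand setting: not given in the sources used here. The authors deposited 1 RSEM gene table per sample, with unnormalised expected counts, per the file headers. The same tables of the authors hold TPM (per length, used for levels between genes and in alternatives), FPKM (not used in a test) and gene lengths, other values used for transcript mix and as an offset.

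Expected counts were rounded. Genes were kept by filterByExpr (13242 of 28358, holding at least 99.9% of counts), scaled by TMM and tested with edgeR 4.0.16 (glmQLFit, glmQLFTest, two-sided, R 4.3.3). The Benjamini-Hochberg adjustment ran over every tested gene, and a call needs an adjusted p below 0.05. Standard errors are the log2 fold change over the square root of F. Alternatives used DESeq2 1.42.0, limma 3.58.1 (voom, and trend on log2(TPM + 1) and log2(TPM + 0.1)), other scalings and filters, and left out each library.

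All 9 members were named whatever their values. The 4 related lists were the secondary loop, kinases and ubiquitin ligases (with Usp2 and Usp7, which remove ubiquitin), cofactors, and light and hormone input. Of these lists every called gene, or else the 3 with the smallest p, and Dbp, Nr1d1 and Nr1d2 were named. Markers of rods, cones, ganglion cells, bipolar cells, amacrine and horizontal cells, Müller glia, microglia, endothelium, pigment epithelium and choroid, lens and erythrocytes were listed as a check; 1 further rod marker is not reported here. The members and lists were chosen with earlier results of these data known. Prph2, Itgam, Pecam1, Sirt1 and Hba-a1 were not matched and not analysed here. Motifs were searched in RefSeq promoter windows of GRCr8.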

Additional observations from a re-analysis of the deposited data

How the results depend on the processing

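The calls of Ciart held in 18 of 19 alternatives, and those of Arntl in 13. Among the 19 was the looser threshold of 0.1 on the same fit, where a call could not be lost. With 1 library left out, 1 or 2 of the 9 genes were called, 111 (without treated library 2) to 621 (without treated library 1) of all tested genes, 0 or 1 of the secondary loop and 0 to 3 of the cofactors. The log2 fold changes then ranged from 0.25 to 0.28 for Arntl, −0.013 (without treated library 3) to 0.10 for Clock, −0.12 (without treated library 2) to 0.14 for Npas2, −0.053 (without control library 3) to 0.065 for Per3 and −0.036 to 0.00036 (without treated library 2) for Dbp. Npas2 was also negative without control library 2 (−0.071) and Per3 without treated library 3 (−0.0037). The cause of these changes was not tested. On log2(TPM + 1) and log2(TPM + 0.1), 1 of the 9 was called each, 100 and 95 of all genes, and 0 cofactors in both. Arntl then measured 0.28 in both (adjusted p = 0.0714 and 0.0743), and Dbp 0.028 and 0.029. Without a filter 602 genes passed, and with a threshold of 0.1, 593 genes, 2 kinases and ligases, and 2 cofactors. DESeq2, robust shrinkage and no filter also gave 2 cofactors. Per2 passed with upper quartile scaling (−0.33), robust shrinkage (−0.33), no filter (−0.32) and the threshold of 0.1 (−0.33). With effective lengths as an offset Per3 measured −0.0090 and Dbp 0.011. With the title number as a covariate, 0 of the 9 genes, 0 of all genes, 0 kinases and ligases, 0 cofactors and 0 input genes passed. Arntl then measured 0.26, Ciart 0.16, Clock −0.042, Npas2 −0.14, Cry1 −0.036, Cry2 0.13, Dbp 0.045, Nr1d1 −0.45, Ncor1 −0.071 and Pspc1 −0.076. No paired analysis was possible because the labels give the groups no shared replicate numbers. At 95 to 148 counts a library, Npas2 had the widest interval of the 9.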
